A study of Mus musculus with 4 samples.

Results

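The Kruppel-like factors are zinc-finger transcription factors that bind GC-rich and CACCC sequences in promoters and enhancers. Some members mainly activate their targets and others recruit corepressors, and several are encoded by short-lived messages that respond quickly to serum, hormones, growth factors and nutrients. In the nervous system, members of the family are known as brakes or promoters of axon growth and as regulators of glial differentiation. The 10 members described here, Klf2, Klf3, Klf4, Klf5, Klf6, Klf7, Klf9, Klf10, Klf11 and Klf15, were taken by gene name from 31093 gene names on a mouse expression array, and they are represented by 11 of its 39429 probes, with 2 for Klf3 and 1 for each of the others. They were chosen by family name with their log2 levels in all 4 conditions known, so the differences are given as descriptions, without a test.

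IMS32 is a Schwann cell line that arose by spontaneous immortalization of adult mouse Schwann cells, the glia that ensheathe and myelinate peripheral axons. Each of the 4 conditions was 1 culture kept for 1 h in DMEM with 5% FBS: [Glc 5 mM/Pyr (+)] with 5 mM glucose and 1 mM pyruvate, [Glc 5 mM/Pyr (−)] with 5 mM glucose and no pyruvate, [Glc 15 mM/Pyr (+)] with 15 mM glucose and 1 mM pyruvate, and [Glc 15 mM/Pyr (−)] with 15 mM glucose and no pyruvate. RNA of each condition was hybridised to 1 one-colour array, all 4 on 1 slide, so there was no replicate, and differences between conditions and between single dishes or arrays cannot be told apart. In such bulk RNA, fewer cells of a type and less RNA per cell cannot be told apart either.

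Values are spot intensities after background correction by the scanner software, and differences are log2 differences after each array was set relative to its 75th percentile over the probes for mouse transcripts. That percentile was between 1598 and 1789 on the 4 arrays, and 28470 to 30343 of 39418 probes were well above background. All 11 probes of the members were well above background on every array, and 0 were saturated. For the member probes, the only error available is the one the scanner software assigns to each spot. It came to 0.20 on the log2 scale for a difference between arrays, and to as much as 0.34 for the dim Klf15 probe. Apart from Klf15 it was nearly the same share of the intensity for every member probe, bright or dim. It therefore acts as an almost fixed margin, was not measured from repeated spots, and does not cover the spread between cultures. This value is called the error, or the spot error, in what follows. A difference is called beyond it where it is larger, without a multiple of it and without a test. On the same arrays, probes printed 10 times gave a spread of 0.084 for a difference between single spots with intensities over 1000, 0.12 between 50 and 1000, and 0.43 under 50.

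Promoter windows from RefSeq on GRCm38.p6, running from 250 bases before to 50 bases after the transcript start, were found for 8 of the 10 members, those other than Klf5 and Klf10. The 250 bases before the start are shown for Klf2 (chr8:72318812-72319061, plus strand) and Klf4 (chr4:55532476-55532725, minus strand), both higher without pyruvate in 15 mM glucose, and for Klf7 (chr1:64121390-64121639, minus strand), which was lower there. Capitals mark the GC box GGGCGG and the CACCC box, the sequences that Kruppel-like factors and the related Sp factors bind, on either strand and with overlapping matches joined.
Klf2: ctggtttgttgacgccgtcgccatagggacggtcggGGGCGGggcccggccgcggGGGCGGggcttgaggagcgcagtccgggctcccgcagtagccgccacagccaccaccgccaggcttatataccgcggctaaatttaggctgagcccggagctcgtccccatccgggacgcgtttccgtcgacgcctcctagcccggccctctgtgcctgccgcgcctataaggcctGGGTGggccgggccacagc
Klf4: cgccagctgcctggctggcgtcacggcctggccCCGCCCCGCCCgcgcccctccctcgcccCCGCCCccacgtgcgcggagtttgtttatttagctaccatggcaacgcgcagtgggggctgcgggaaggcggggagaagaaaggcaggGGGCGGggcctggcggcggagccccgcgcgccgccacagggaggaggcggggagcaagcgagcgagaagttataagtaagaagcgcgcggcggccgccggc
Klf7: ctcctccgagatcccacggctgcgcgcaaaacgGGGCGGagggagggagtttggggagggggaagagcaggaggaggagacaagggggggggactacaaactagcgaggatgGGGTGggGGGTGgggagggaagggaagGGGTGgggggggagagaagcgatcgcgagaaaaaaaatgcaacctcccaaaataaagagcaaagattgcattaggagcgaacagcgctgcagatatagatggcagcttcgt
The Klf2 window held GC boxes from 214 to 209 and from 195 to 190 bases before the start, and a CACCC box from 19 to 15 bases before it. In the Klf4 window the marked letters were GC boxes, and in the Klf7 window there were 1 GC box and 3 CACCC boxes. GC boxes were found on either strand in 7 of the 8 windows, against 35.7% of 32851 promoter windows of the same length, and CACCC boxes in 5 of 8 against 57.5%. The windows were GC-rich, at 58.3% to 77.7% against a median of 52.7%. The E-box CACGTG, a site of bHLH factors such as Myc, Usf1 and Usf2, was found in 4 windows (Klf4, Klf6, Klf11 and Klf15), against 7.15% of all. The cAMP-response element TGACGTCA was in 0 of 8, against 1.79%, while TGACG, which is contained in it, was in 5 against 20.8%. CCAAT was found in 4 against 37.4%, and TATAAA in 0 against 13.6%. The MEF2 box was found only in the Klf2 window among the 8, from 118 to 109 bases before the start, against 3.19% of all windows, and the CArG box of serum response factor in 0 against 1.63%. These matches describe the letters of the windows and were not measured as binding.

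**Figure D1:**
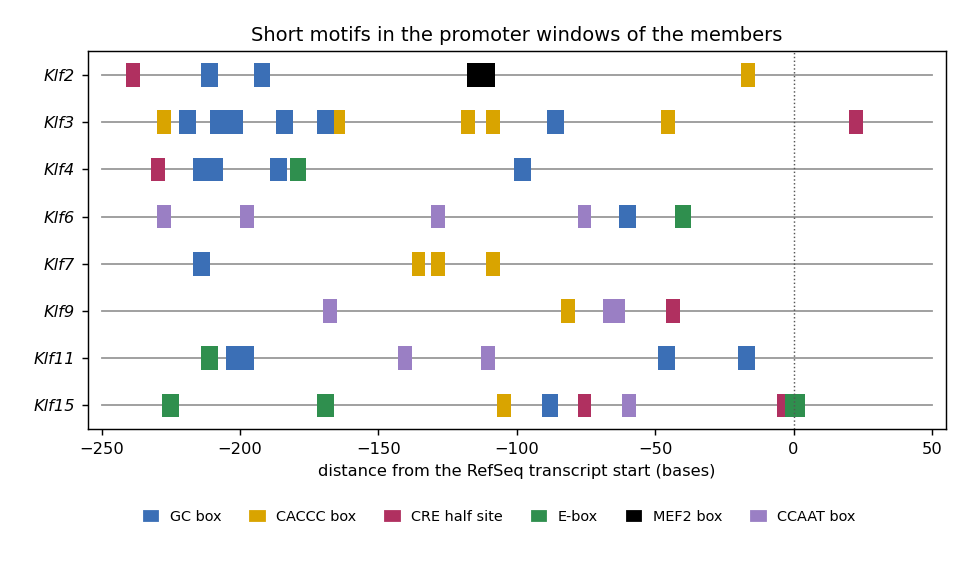
Positions of short motifs, on either strand, in the promoter windows of 8 members; the horizontal axis is the distance in bases from the RefSeq transcript start, and coloured blocks are matches. GC boxes lie in 7 windows, and the MEF2 box in the Klf2 window.

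The question of the comparison was how the absence of pyruvate and a high glucose concentration alter transcripts of Schwann cells within 1 h. At 15 mM glucose, Klf2, Klf4, Klf11 and Klf15 were higher without pyruvate than with it, and Klf7 and Klf10 were lower. Each of these 6 differed by more than the error of the spots, and Klf11 differed least. Of all genes, 14.3% differed at least as far as Klf11. At 5 mM glucose only Klf2 and Klf10 differed by more than that error, and both were lower without pyruvate. There Klf2 had the smaller difference of both, and 16.8% of all genes differed at least as far. Klf3, Klf5, Klf6 and Klf9 stayed within the error in all 4 comparisons of arrays. Klf2 was the only one of the 10 to reach 2-fold, at 15 mM glucose without pyruvate, in both comparisons that use that array, in which 2.16% (pyruvate) and 2.46% (glucose) of all genes did so.

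**Figure D2:**
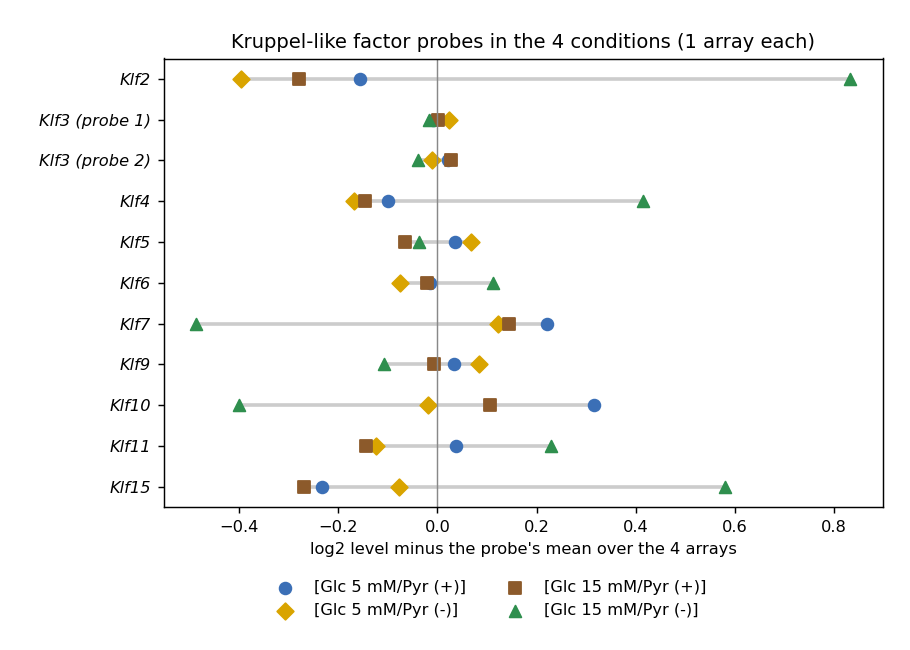
Level of each of the 11 probes on the 4 arrays, as the log2 level minus the probe's own mean; each symbol is 1 array and the grey line is the range. The array of [Glc 15 mM/Pyr (−)] lies apart to the right for Klf2, Klf4 and Klf15 and to the left for Klf7 and Klf10.

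Klf2 encodes a factor known for quiescence of T cells and for the response of endothelium to blood flow, where the kinase ERK5 and MEF2 factors induce it. Its probe (mm9, chromosome 8, 74845137 to 74845196, plus strand) read 1283 and 1057 at 5 mM glucose, with and without pyruvate in turn, and 1053 and 2322 at 15 mM. The 15 mM array without pyruvate was thus high, and the other 3 lay within 0.24 of each other on the log2 scale. At 15 mM glucose the level without pyruvate was 2.16-fold higher than with it (log2 difference 1.11, error 0.20), and at 5 mM it was lower, at a log2 difference of −0.24. Without pyruvate, 15 mM glucose gave a level 2.34-fold above 5 mM glucose, and with pyruvate the log2 difference was −0.12, inside the error. The pyruvate difference at 15 mM minus that at 5 mM, called the crossed difference, was 1.35 with an error of 0.29. Of 21885 genes measured for pyruvate at 15 mM, 1.72% differed at least as far, and so did 1.08% of the 7239 genes in the same tercile of signal, the middle one.

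Klf4 encodes a factor known for keeping epithelial and stem cells undivided or undifferentiated, and as a brake on axon growth. Its probe (mm9, chromosome 4, 55540167 to 55540226, minus strand) read 1688, 1568, 1461 and 2199 in the same order of conditions, which is kept for all genes. As for Klf2, the last array was the high one, while the other 3 differed by less than the error. The level without pyruvate was 1.47-fold that with it at 15 mM glucose (log2 difference 0.56), and the log2 difference at 5 mM was −0.068. Klf6, an injury-induced gene and promoter of axon growth, had a bright probe (mm9, chromosome 13, 5869371 to 5869430, plus strand) with intensities of 14817, 13832, 13174 and 14745. Its log2 differences for pyruvate, −0.061 at 5 mM and 0.13 at 15 mM, were inside the error. Klf5, a growth-promoting factor of epithelia and smooth muscle that the ligase WWP1 marks for degradation, read 1569, 1563, 1308 and 1362, and its pyruvate differences were 0.033 at 5 mM and 0.028 at 15 mM glucose. The files give no position for the Klf5 probe.

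Klf7 encodes a factor of developing neurons that is known to favour axon outgrowth. Its probe (mm9, chromosome 1, 64082265 to 64082324, minus strand) read 7621, 6931, 6459 and 4261. Here the 15 mM array without pyruvate was the low one, and the remaining arrays lay close to each other. The level without pyruvate was 1.55-fold lower at 15 mM glucose (log2 difference −0.63), and at 5 mM the log2 difference was −0.098. At 15 mM, 5.91% of all genes and 0.705% of those in the brightest tercile of signal differed at least as far.

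Klf10 and Klf11 are the members first described as early genes induced by TGF-beta, and both recruit Sin3 corepressors. The Klf10 probe (mm9, chromosome 15, 38224255 to 38224314, minus strand) read 15136, 11688, 11698 and 8405, so that it was highest with 5 mM glucose and pyruvate and lowest with 15 mM glucose alone. Klf10 was the only member beyond the spot error in all 4 comparisons of arrays. Without pyruvate it was 1.26-fold lower at 5 mM glucose (log2 difference −0.33) and 1.42-fold lower at 15 mM (log2 difference −0.51). With 15 mM instead of 5 mM glucose, the log2 difference was −0.21 when pyruvate was present, barely outside the error, and −0.38 when it was not. The crossed difference of −0.17 was inside its error of 0.29, so that the pyruvate differences at both glucose concentrations could not be separated by it. For pyruvate at 5 mM, 9.64% of all genes and 0.774% of those in the brightest tercile differed at least as far, and at 15 mM 8.69% and 1.57% did. For glucose with pyruvate the shares were 24.4% and 6.59%, and for glucose without pyruvate 15.4% and 3.76%. The Klf11 probe (mm9, chromosome 12, 25347324 to 25347383, plus strand) read 161, 140, 127 and 168. Unlike Klf10, it was 1.29-fold higher without pyruvate at 15 mM glucose (log2 difference 0.37), with a log2 difference of −0.16 inside the error at 5 mM.

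Klf9 and Klf15 are induced by glucocorticoids in many tissues, and Klf15 is known as a regulator of gluconeogenesis and amino acid breakdown in fasting. The Klf15 probe (mm9, chromosome 6, 90425144 to 90425203, plus strand) was the only one in the dimmest tercile of signal, with intensities of 16.2, 17.5, 14.1 and 25.9. The last array was the high one, and the level there was 1.80-fold that of 15 mM glucose with pyruvate (log2 difference 0.85, error 0.32). With normexp background correction and an offset of 50 the same log2 difference was 0.17; the offset is larger than all 4 intensities. Of all genes 3.24%, and of those in the dimmest tercile 6.58%, differed at least as far. The Klf9 probe (mm9, chromosome 19, 23240410 to 23240469, plus strand) read 8497, 8568, 7384 and 7031, and its pyruvate differences of 0.051 and −0.10 were inside the error.

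Klf3 encodes a repressor that works through the corepressor CtBP, and it was the only member with more than 1 probe. The first probe (mm9, chromosome 5, 65221309 to 65221368, plus strand) read 8137, 8101, 7319 and 7374, and the second (65223991 to 65224050) read 4979, 4744, 4467 and 4357. After scaling, the levels of each probe spanned 0.041 and 0.066 on the log2 scale, so that both gave the same picture. The mean differences for pyruvate were 0.00032 at 5 mM and −0.043 at 15 mM.

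**Figure D3:**
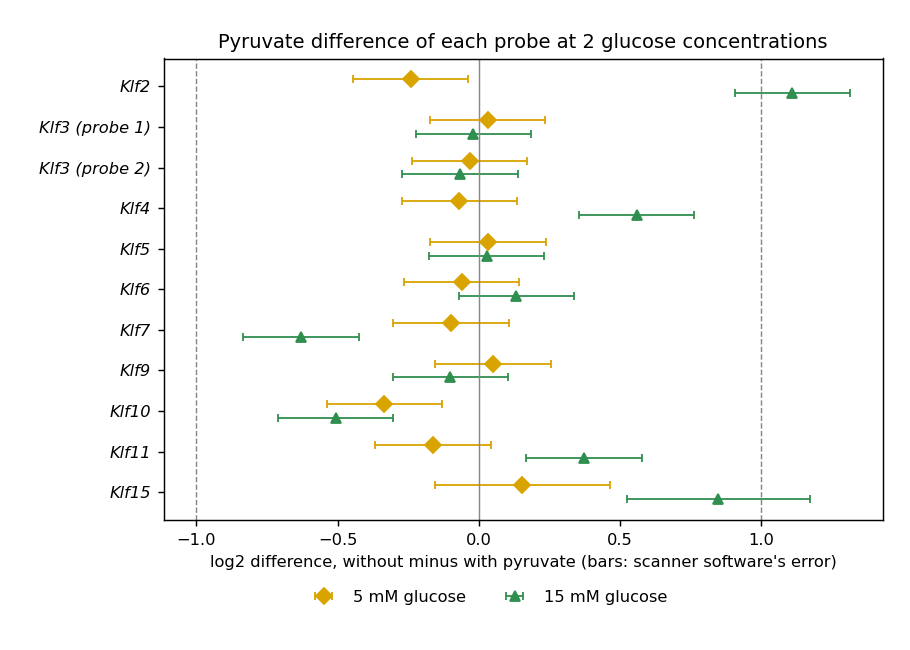
Log2 difference without minus with pyruvate for each of the 11 probes at 5 mM and at 15 mM glucose; bars are the scanner software's error of the difference, and dashed lines mark 2-fold. Klf2 passes the line at 15 mM with a difference of 1.11, and Klf10 lies below 0 at both concentrations.

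The counts of members beyond each threshold are given beside the share of all genes. For pyruvate at 15 mM glucose 1 of 10 members reached 2-fold, against 2.16% of 21885 genes, and at 1.5-fold there were 3 (Klf2 and Klf15 higher, Klf7 lower) against 6.76%. For pyruvate at 5 mM the count was 0 at 2-fold against 1.18% of 22949 genes, and 0 at 1.5-fold against 3.45%. For glucose with pyruvate it was 0 at 2-fold against 1.0% and 0 at 1.5-fold against 3.33%. For glucose without pyruvate it was 1 at 2-fold against 2.46% and 3 at 1.5-fold against 7.41%, and this comparison shares the 15 mM array without pyruvate with the pyruvate comparison at 15 mM. The crossed difference reached 2-fold for 1 member, against 2.86% of 21717 genes, and 1.5-fold for 3 (Klf2, Klf4 and Klf15) against 8.99%. Since the members were chosen with these values known, nothing is read from the shares.

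Direction was mixed within the family. Without pyruvate, 6 of 10 members were lower at 5 mM glucose by any amount, against 56.3% of genes (all 10 with scaling to spike-in probes, which put the median of all genes at −0.19), and 6 were higher at 15 mM against 57.0%. The medians over the members were −0.064 and 0.080, beside −0.020 and 0.034 over all genes. With 15 mM instead of 5 mM glucose, 9 members were lower in the presence of pyruvate, against 55.6% of genes (of these, Klf6 and Klf15 turned sign with normexp background correction, and Klf15 with quantile normalization). The median was −0.061 beside −0.022 over all genes, and Klf10 alone was beyond the spot error. In the absence of pyruvate 5 were higher, against 56.5%, and 5 lower, against 43.5%.

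The members were also sorted by the array on which each was highest or lowest. [Glc 15 mM/Pyr (−)] was the highest of the 4 for 5 members (Klf2, Klf4, Klf6, Klf11 and Klf15), against 38.7% of genes, and the lowest for 4 (Klf3, Klf7, Klf9 and Klf10), against 30.2%. Klf2 and Klf15 were there at least 1.5-fold above each of the other arrays, as were 1.39% of genes, and Klf7 was at least 1.5-fold below each of them, as were 2.25%. The [Glc 5 mM/Pyr (+)] array was highest for Klf7 and Klf10, against 30.3% of genes, and lowest for 0 members, against 22.9%. The array with 5 mM glucose and no pyruvate was highest for Klf5 and Klf9 (15.9% of genes) and lowest for Klf2, Klf4 and Klf6 (23.5%), and the array with 15 mM glucose and pyruvate was highest for Klf3 (15.1%) and lowest for Klf5, Klf11 and Klf15 (23.5%). For Klf3, Klf5, Klf6 and Klf9 the order of the arrays lies inside the error that the scanner software assigns. The ranges of Klf5 (0.13), Klf6 (0.19) and Klf9 (0.19) were wider than the 0.084 between repeated spots with intensities over 1000.

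Differences were wider among genes with dimmer signal. Noise of dim spots and changes between conditions were not separated in these shares. For pyruvate at 15 mM glucose, 4.38% of genes reached 2-fold in the dimmest tercile of signal, 1.45% in the middle tercile and 0.207% in the brightest. At 5 mM the shares were 2.39%, 0.0138% and 0%. Klf15 lay in the dimmest tercile, Klf2, Klf4, Klf5 and Klf11 in the middle tercile, and Klf3, Klf6, Klf7, Klf9 and Klf10 in the brightest.

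**Figure D4:**
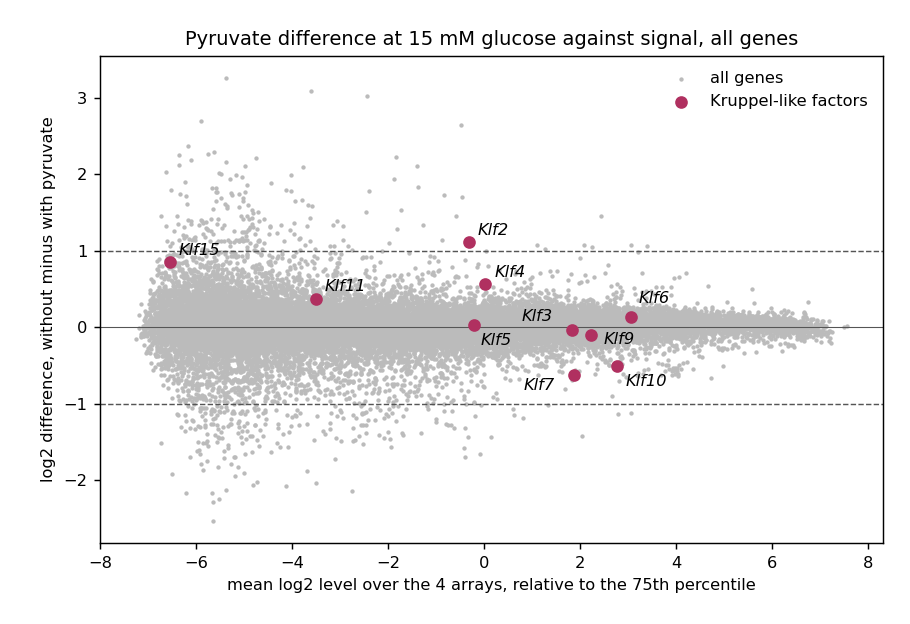
Log2 difference without minus with pyruvate at 15 mM glucose against the mean log2 level relative to the 75th percentile, for all genes (grey) and the 10 members (red); dashed lines mark 2-fold. The grey cloud narrows with signal, Klf2 lies above the upper line at 1.11, and Klf7 and Klf10 lie below the bulk at −0.63 and −0.51.

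Other genes of the KLF and SP family served as the nearest comparison. Of 16 such genes on the array, 12 were well above background on all 4 arrays. In the 4 comparisons of arrays 0 reached 1.5-fold, against 3.33% to 7.41% of all genes. Without pyruvate, 11 of 13 measured were lower at 5 mM glucose (median −0.092), against 56.3% of all genes. At 15 mM 7 of 12 were lower (median −0.075), where 57.0% of all genes were higher. At 5 mM Klf12, a repressor related to Klf3, lay farthest, with intensities of 313, 239, 215 and 199 and a log2 difference of −0.35. At 15 mM Sp6, a factor of tooth and limb development, lay farthest, with 85.9, 74.7, 73.1 and 57.6 and a log2 difference of −0.37. The members were set apart from these relatives with the values known, and the difference between both lists was not tested.

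The pathways that act on the members showed few differences of that size. ERK5 and MEF2 genes, which drive Klf2 and Klf4 in endothelium, were all measured, 8 of 8. With and without pyruvate 0 of them differed by 1.5-fold at 5 mM or 15 mM glucose, against 3.45% and 6.76% of all genes. Mef2c lay farthest at both concentrations (−0.097 and −0.29), with dim intensities of 33.9, 30.8, 32.7 and 27.3. Of 6 genes of the glucocorticoid receptor and its responsive set, 0 reached 2-fold. For pyruvate at 15 mM glucose 1 of them reached 1.5-fold, against 6.76% of all genes. Tsc22d3, the glucocorticoid-induced leucine zipper gene, read 3139, 3962, 3130 and 5214, and its log2 differences for pyruvate were 0.37 at 5 mM and 0.71 at 15 mM. It was thus high in both arrays without pyruvate. Sgk1, a serum- and glucocorticoid-induced kinase, lay farthest at 5 mM (−0.38) and read 13412, 10064, 10496 and 12203.

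Of 11 genes of the TGF-beta pathway, which induces Klf10 and Klf11, 0 reached 2-fold in any of the 4 comparisons of arrays. Of all genes, 1.0% to 2.46% did. The count of this list at 1.5-fold is not reported here. The medians of the pyruvate differences were −0.045 at 5 mM and −0.060 at 15 mM glucose, beside −0.020 and 0.034 over all genes.

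Of 10 genes for cofactors and ubiquitin ligases of the family, 0 passed 1.5-fold for pyruvate, against 3.45% of all genes at 5 mM and 6.76% at 15 mM. Kat2b, an acetyltransferase, lay farthest at 5 mM (−0.26), and Fbxw7, the substrate receptor of a ligase that targets Klf2 and Klf5, at 15 mM (−0.21). Among 11 listed target genes, 10 were measured for pyruvate at 5 mM and 9 at 15 mM, and 0 passed 1.5-fold, against the same shares of all genes. S1pr1, the sphingosine phosphate receptor that Klf2 activates in T cells, read 387, 467, 368 and 444 and differed by 0.31 at 5 mM. Cdkn1a, the cell cycle inhibitor that Klf4 and Klf6 activate, differed by 0.27 at 15 mM. The median of the targets was 0.052 at 5 mM and 0.18 at 15 mM, beside −0.020 and 0.034 over all genes. At 5 mM 8 were higher and 2 lower, where 56.3% of all genes were lower. At 15 mM 5 were higher, against 57.0% of all genes, and 4 lower, with Gpt lowest at −0.14.

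The genes whose pattern over the 4 arrays lay nearest to Klf2, by the Euclidean distance between centred log2 levels over 15776 genes, were Ier2 (0.091), Foxo4 (0.14), Gm12500 (0.16), Gm2011 (0.17) and Snhg9 (0.17). Ier2, an immediate early gene, read 372, 308, 309 and 630. Those nearest to Klf15 were 1700001L05Rik (0.055), Foxj1 (0.075), BC049762 (0.078), Ankrd61 (0.080) and Plk3 (0.081). Plk3, a stress-responsive kinase, read 804, 851, 703 and 1205. With only 4 arrays, such likeness is a description of 4 points per gene.

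Markers of the cell line and of other cells were read alongside. All 13 Schwann cell markers, Sox10 and S100b among them, were well above background on all arrays, and their summed level was 56.0, 54.3, 56.3 and 49.4 times the 75th percentile. Of the endothelial markers, Cdh5 and Tie1 were well above background on no array and 2 of 5, Pecam1 and Kdr, on all. Their summed level of 2.66 to 3.20 came mostly from 1 Kdr probe, which read 5496 with 5 mM glucose and pyruvate, against 202 for Pecam1. All 5 macrophage markers on the array were above background, with summed levels of 8.65, 8.20, 6.61 and 6.69. Most of that came from Itgam, at 13155 with 5 mM glucose and pyruvate, while Ptprc and Adgre1 read under 50. Without pyruvate at 15 mM, Cd68, a lysosomal protein gene, was higher by 0.88 on the log2 scale. Ptprc was lower there (−0.27), and Csf1r, Itgam and Adgre1 differed by 0.033, 0.070 and 0.093. Fibroblast markers, 4 of 5 above background, summed to 0.996 to 1.13. The part of these cell types in the differences of the members was not tested.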

How the data were processed

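Total RNA of IMS32 cells from 4 conditions was hybridised to one-colour Agilent arrays, 1 per condition. Scanner files from Agilent Feature Extraction 11.5.1.1 were deposited, in which the processed signal is a background-corrected spot intensity, not scaled between arrays. The authors also deposited a table of the same features as a ratio, each intensity divided by 1 constant per array. Over all 44397 features the ratio matched the intensity within 1e-06, so it was used as an alternative only; what the constant is was not given in the sources used here.

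Control spots and spots flagged as outliers were left out, spots of 1 probe were averaged (39418 of 39429 probes), and the log2 value of each array's 75th percentile was subtracted. Per gene, differences were averaged over the probes well above background on both arrays compared. With 1 array per condition there is no test, only thresholds of 2-fold and 1.5-fold. The number of arrays limits the precision. The members and gene lists were chosen with earlier results of these data known. All members with every probe were named. From the other lists, genes reaching 2-fold and the gene farthest from 0 for pyruvate at each glucose concentration were named, and for Klf2 and Klf15, the members of widest range, the 5 nearest genes. Of these, 1 gene is not reported here. Tsc22d3 at 5 mM, Cd68 and other marker genes were named after their values were seen. Names came from the array's own design; 22586 of 31087 with a value, and all 10 members, matched a symbol or synonym in RefSeq (GRCm38.p6). Positions of probes were copied from the scanner files (mm9), and the exon or UTR under a probe was not analysed here. The MEF2 and CArG boxes were searched by their consensus and the other motifs by the letters given, on both strands.

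There were 10 alternatives, among them other scalings, normexp background correction, filters on dim probes and thresholds. Normalizations used limma 3.58.1 under R 4.3.3, and all else pandas 2.3.3 and numpy 2.4.6 under Python 3.11.15. Tested on simulated data for pyruvate at 15 mM glucose, the calculation recovered 150 of 150 probes changed 3-fold to 8-fold among 39418, with 0 of 39218 unchanged probes called. Every simulated probe had the same small noise, without the spread of 0.43 seen under an intensity of 50 and without any spread between cultures. Changes of 2-fold were not simulated. The result therefore checks the calculation only, and gives no rate of false calls for the real arrays.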

Additional observations from a re-analysis of the deposited data

Results flagged for a closer look

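For 6 members the difference between arrays without and with pyruvate had opposite signs at 5 mM and 15 mM glucose. Of all genes, 56.3% were lower at 5 mM and 57.0% higher at 15 mM. The share of all genes with opposite signs was not counted, so nothing is read from the 6. The crossed difference, that at 15 mM minus that at 5 mM on the log2 scale, was 1.35 for Klf2, 0.63 for Klf4, 0.53 for Klf11, 0.19 for Klf6, −0.15 for Klf9 and −0.043 for Klf3. With 1 array per condition these differences were not tested. Klf2 was the only one of the 6 whose pyruvate differences lay beyond the spot error at both glucose concentrations, and those of Klf3, Klf6 and Klf9 were inside it at both.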

How the results depend on the processing

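The values recomputed under alternatives were set against a spread between spots of 0.128, taken over repeated probes of all intensities. This is narrower than the 0.43 for probes under 50, such as Klf15. Of 545 values, 489 moved by less than that spread, 56 moved further, and in 0 cases did a difference past 2-fold turn sign. Only Klf2 was past 2-fold, so no other member could do so. The 545 include 95 medians and counts of members, and a count is taken as moved where it changed. Of 450 values for single members 49 moved further. Not every alternative could move a member. All member probes were well above background on all arrays, so filters on dim probes left member differences unchanged. Taking the brightest probe of a gene could change Klf3 alone. Klf2 stayed past 2-fold under all alternatives, at 1.08 to 1.11 for pyruvate at 15 mM glucose, 1.07 to 1.23 for glucose without pyruvate and 1.32 to 1.49 for the crossed difference. For pyruvate at 15 mM, Klf7 ranged from −0.66 to −0.61, Klf10 from −0.53 to −0.50, Klf4 from 0.52 to 0.56, Klf11 from 0.22 to 0.37 and Klf15 from 0.17 to 0.85, the lowest of the last 2 with normexp. Scaling to 9 spike-in probes gave member medians of −0.23 for pyruvate at 5 mM, −0.36 for glucose with pyruvate, −0.081 for glucose without pyruvate and 0.23 for the crossed difference, and it shifted the median of all genes to −0.19, −0.32, −0.12 and 0.19 in turn. The sign turned under some alternative only for differences of Klf3, Klf5, Klf6, Klf9 and Klf15 that lay inside the spot error. At 1.5-fold the member counts were 3 for pyruvate at 15 mM, 3 for glucose without pyruvate and 3 for the crossed difference. Over all genes, 271, 473, 223 and 547 reached 2-fold for pyruvate at 5 mM, pyruvate at 15 mM, glucose with and glucose without pyruvate. With normexp these were 9, 88, 7 and 91, and without a filter on dim probes 1287, 2051, 1285 and 2197. For pyruvate at 5 mM the count was 175 over probes above background on all arrays, and for glucose with pyruvate 354 with spike-in scaling (56 higher and 298 lower, against 100 and 123). No paired analysis was possible because each condition had 1 array and no result came from a test. Dim probes such as Klf15 are limited by their signal over background.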
